A study of Mus musculus with 18 samples.

Results

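The poly(ADP-ribose) polymerase (PARP) family of ADP-ribosyltransferases was followed through 10 genes, Parp1, Parp2, Parp3, Parp4, Parp8, Parp9, Parp10, Parp12, Parp14 and Parp16, of 17672 genes in the count table. Members were taken by gene symbol. They had been picked for their values in these libraries, mainly the contrast of Dox with no Dox and the fall of Parp16 with SR-3420 in the presence of Dox. Values from those contrasts are therefore given as a description without a test. All 10 members had enough counts to be tested.

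PARP enzymes transfer ADP-ribose from NAD+ to proteins or nucleic acids, either as single units or as chains. PARP1, PARP2 and PARP3 act at DNA breaks, whereas PARP9, PARP10, PARP12 and PARP14 are products of interferon-stimulated genes and take part in antiviral and inflammatory responses. PARP16 is anchored in the membrane of the endoplasmic reticulum (ER) and modifies the stress sensors PERK and IRE1α. PARP4 belongs to the vault ribonucleoprotein particle, and PARP8 is a little-studied mono-ADP-ribosyltransferase.

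The cells were mouse adipocytes differentiated from an immortalised brown preadipocyte line with stable knockdown of ABHD5, handled much like the SV40 large T antigen line BAT-LgT. All 18 libraries came from cells with a stable shRNA against Abhd5, the co-activator of the triglyceride lipase ATGL, and with an integrated doxycycline (Dox)-inducible, mCherry-tagged and shRNA-resistant ABHD5. The labels give the genotype as ABHD5 KD without Dox and as WT with Dox (1 µg/ml, for 24 to 48 h in the labels and 24 h in the study's account of this experiment), so the WT cells still carried the shRNA. Cells of each kind received either the β-adrenergic agonist isoproterenol (ISO, 10 nM) or the ABHD5 ligand SR-3420 (20 µM), or DMSO as vehicle, for 3 h, which gave 6 groups of 3 replicates. Dox was absent from all the KD cells and present in all the WT cells, so effects of the drug and of re-expressed ABHD5 cannot be told apart.

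Libraries held 689910 to 1956565 counts. The share of counts held by the 10 most abundant genes was 16.3% to 26.5%, except for 35.6% in SR-3420 with Dox replicate 1, and the main results that rest on that library are given with and without it. Abhd5 rose from 52.6 ± 4.71 to 574 ± 86.1 CPM (counts relative to the normalised library total, SD, n = 3) with Dox in DMSO, in the direction of the labels. Of 9 adipocyte markers, 7 were in the table and all of these had counts in every group, while the brown marker Dio2 was at 0 in all libraries, Ucp1 ranged from 0 to 347 counts and Elovl3 from 0 to 8. The other 4 of 7 brown markers had counts in every library, Cidea 8 to 61, Prdm16 13 to 213, Ppargc1a 15 to 716 and Ebf2 26 to 149. The counted length of genes followed their intron bases (log10 r = 0.956 across 16388 genes, which are not independent replicates) rather than their exon bases (0.543). The methods name gene-level counting, and whether the counts hold mainly unspliced or spliced RNA was not tested. In these bulk samples, fewer cells of a type and less RNA per cell cannot be told apart.

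The promoters of Parp12, Parp16 and Parp4 are shown. Parp12 was higher with Dox, and Parp16 was lower with SR-3420 in the presence of Dox. Parp4 was not higher with Dox in DMSO and was the only member found to hold the interferon-stimulated response element core, marked below. Parp1 (0.03), Parp2 (-0.06) and Parp8 (-0.02) changed no more with Dox in DMSO on the log2 scale and are not shown. RefSeq promoter windows (build GRCm38.p6) matched 7 of the 10 members, and Parp9, Parp10 and Parp14 had no entry. Sequences run 5′ to 3′ up to the base before the promoter table's start or, for Parp16, the base before the annotated gene, on the plus strand for Parp16 and Parp4 and the minus strand for Parp12. Capitals mark matches to the interferon-stimulated response element core (GAAA, any 2 bases, GAAA) or the nuclear receptor half-site AGGTCA.
Parp12, chr6:39118350-39118599: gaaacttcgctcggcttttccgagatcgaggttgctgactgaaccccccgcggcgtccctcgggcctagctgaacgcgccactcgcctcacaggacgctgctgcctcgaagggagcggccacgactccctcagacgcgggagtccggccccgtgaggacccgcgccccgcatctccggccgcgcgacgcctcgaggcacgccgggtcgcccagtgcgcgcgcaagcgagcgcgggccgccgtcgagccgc
Parp16, chr9:65214440-65214651: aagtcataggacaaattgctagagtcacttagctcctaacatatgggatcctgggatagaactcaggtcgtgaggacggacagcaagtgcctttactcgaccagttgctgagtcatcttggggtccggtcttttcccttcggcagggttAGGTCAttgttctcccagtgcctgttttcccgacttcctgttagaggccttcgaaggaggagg
Parp4, chr14:56575369-56575618: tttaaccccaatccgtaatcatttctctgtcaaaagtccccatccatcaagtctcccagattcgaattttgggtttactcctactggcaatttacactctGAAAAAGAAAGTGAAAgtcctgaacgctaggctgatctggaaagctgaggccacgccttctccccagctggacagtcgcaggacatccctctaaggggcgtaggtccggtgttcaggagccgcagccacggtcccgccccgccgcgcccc

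In the 250 bases before the start, read on both strands, the response element core occurred in 2.98% of 32851 windows of that length in the table. Among the 7 members with an entry, Parp4 held this core, as 2 overlapping matches that begin 150 and 144 bases before the start. Parp12, which was several-fold higher with Dox, did not hold it in this window. AGGTCA, present in 14% of windows, occurred at 101 and 23 bases before the promoter table's start for Parp16. The nearer match lies within the annotated gene and outside the stretch shown. The cyclic AMP half-site TGACG, present in 17.8% of windows, was found for Parp8 alone of the 7, at 67 bases. None of the 7 held the GAS element TTCNNNGAA (7.02% of windows), the full cyclic AMP element TGACGTCA (1.55%) or the paired half-sites (AGGTCA, any base, AGGTCA; 0.0335%). The longer elements contain the half-sites. A match is a run of letters and does not show binding.

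Levels were compared between genes per kilobase (kb) of counted length. That length followed intron bases, and whether reads came from spliced RNA was not tested, so the order depends on the divisor. Without the divisor, in DMSO without Dox, Parp12 was highest at 116 CPM, above Parp1 (77.7), Parp16 (77.2), Parp3 (73.8) and Parp10 (40). In DMSO without Dox, Parp3 stood highest at 23.5 ± 4.86 CPM per kb (SD, n = 3), followed by Parp10 at 7.17 ± 0.564 and Parp2 at 5.29 ± 1.09. Parp12 (4.04 ± 0.51) and Parp16 (3.71 ± 0.475) came next with overlapping ranges, and then Parp1 (2.74 ± 0.53). Parp9 (0.978 ± 0.125) was lower, Parp4 (0.376 ± 0.0787) and Parp14 (0.302 ± 0.0977) overlapped, and Parp8 (0.0985 ± 0.0188) was lowest. Apart from these 2 overlapping pairs, neighbours in the order did not overlap.

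With Dox the order of levels in DMSO differed. Parp3 (35.6 ± 4.57 CPM per kb), Parp10 (20.6 ± 4.14) and Parp12 (11.4 ± 2.56) led without overlap. Parp9, now at 5.15 ± 1.4, overlapped Parp2 at 5.03 ± 0.735, which overlapped Parp16 at 4.22 ± 0.385. Parp16 overlapped Parp14 at 3.06 ± 1.13, and Parp14 overlapped Parp1 at 2.72 ± 0.405. Parp4 and Parp8 stayed at the bottom at 0.338 ± 0.0261 and 0.0984 ± 0.0259. Parp3 overlaps Rrp9 on the other strand by 689 bases, which makes its level uncertain because strand use in the counting was not stated.

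The interferon-linked members were higher with Dox under every stimulus. For Parp9, Parp10, Parp12 and Parp14, each of the 9 libraries with Dox lay above each of the 9 without. The median with Dox was 9.7 times the median without for Parp14, 5.24 times for Parp9, 3.49 times for Parp12 and 2.51 times for Parp10. These genes belong to a cluster that the study defined on the same samples, and they were chosen for this contrast, so the direction is no independent evidence.

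Parp14 (NM_001039530, mm9 chromosome 16, 35832964 to 35871468, minus strand) encodes a mono-ADP-ribosyltransferase with macrodomains that bind ADP-ribose. In DMSO its levels were 10.7, 5.44 and 8.12 CPM without Dox and 48.6, 89.5 and 108 CPM with Dox. In ISO they were 2.16, 13.9 and 9.76 CPM without Dox and 47.5, 78.8 and 71.2 CPM with Dox. SR-3420 gave 4.64, 15.7 and 7.06 CPM without Dox and 39.5, 87.5 and 78.9 CPM with Dox. No library without Dox reached the lowest library with Dox, although libraries varied widely within groups and Parp14 without Dox rested on 2 to 27 counts. The log2 fold change for Dox was 3.21 (SE 0.43) in DMSO, 2.88 (SE 0.41) in ISO and 2.86 (SE 0.38) in SR-3420. The last was 3.55 (SE 0.46) without SR-3420 without Dox replicate 2 and ran from 2.50 to 3.55 when a library was left out.

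Parp9 (NM_030253, mm9 chromosome 16, 35938556 to 35972707, plus strand) encodes a macrodomain protein that works as a complex with the ubiquitin ligase DTX3L. Its levels in DMSO were 24.9, 31.3 and 31.5 CPM without Dox and 108, 189 and 164 CPM with Dox. ISO gave 15.1, 44.6 and 20.3 CPM without Dox and 69.2, 178 and 157 CPM with Dox, and SR-3420 gave 34.3, 36.6 and 25.9 CPM without Dox and 102, 194 and 205 CPM with Dox. The gap between the highest library without Dox and the lowest with Dox was narrowest in ISO. Log2 fold changes for Dox were 2.37 (SE 0.33) in DMSO, 2.34 (SE 0.33) in ISO and 2.34 (SE 0.30) in SR-3420. Parp9 overlaps Dtx3l and Gm15564 on the other strand over 6552 bases, so its counts may include reads of these genes.

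Parp12 (NM_172893, mm9 chromosome 6, 39036411 to 39068348, minus strand) encodes a zinc-finger mono-ADP-ribosyltransferase with antiviral activity. Its levels were 103, 132 and 113 CPM in DMSO without Dox against 243, 364 and 375 CPM with Dox. In ISO it stood at 72.4, 140 and 92.3 CPM without Dox and 240, 392 and 281 CPM with Dox. In SR-3420 it stood at 99.9, 121 and 104 CPM without Dox and 266, 393 and 438 CPM with Dox. The groups did not overlap under any stimulus, and the log2 fold changes for Dox were 1.49 (SE 0.22), 1.59 (SE 0.22) and 1.75 (SE 0.21) in DMSO, ISO and SR-3420.

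Parp10 (NM_001163576, mm9 chromosome 15, 76063425 to 76073870, minus strand) encodes a mono-ADP-ribosyltransferase with ubiquitin-binding motifs. It had 38.3, 38.1 and 43.6 CPM in DMSO without Dox and 95.3, 109 and 140 CPM with Dox. ISO gave 48.6, 50.6 and 53.3 CPM without Dox and 84.2, 153 and 149 CPM with Dox, and SR-3420 gave 52.8, 52.3 and 44.7 CPM without Dox and 106, 127 and 122 CPM with Dox. It had the smallest fold changes for Dox of the interferon-linked members in ISO and SR-3420, at 1.33 (SE 0.19) and 1.24 (SE 0.18) on the log2 scale. In DMSO it was 2.82-fold higher with Dox.

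**Figure D1:**
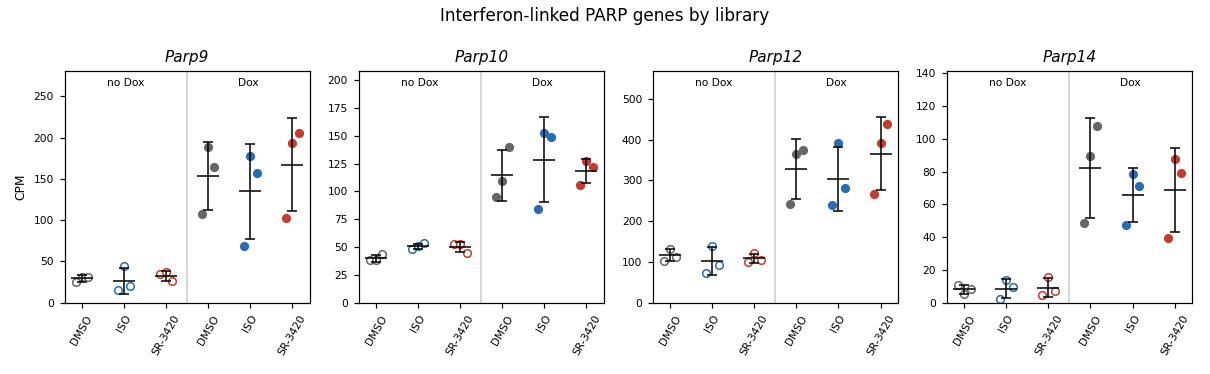
Levels of Parp9, Parp10, Parp12 and Parp14 in CPM (y axis, linear from 0) in the 3 libraries of each of the 6 groups (x axis). Points are libraries in the order of replicates 1 to 3, open without Dox and filled with Dox, and bars give the mean and SD. For each of the genes, every library with Dox lies above every library without.

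Within the cells with Dox, the same replicate number was lowest throughout. In 12 of 12 combinations of these genes with the stimuli, replicate 1 had the lowest level among the 3 libraries with Dox, against 8 of 12 without Dox. The share of all genes with replicate 1 lowest was not counted. These genes rise and fall together, so the combinations are not independent and nothing is read from these counts. Replicate 1 of SR-3420 with Dox is the library that stands apart. Without it the Dox fold changes in SR-3420 were 3.16 (SE 0.37) for Parp14, 2.62 (SE 0.29) for Parp9, 1.94 (SE 0.21) for Parp12 and 1.32 (SE 0.20) for Parp10, all higher than with it. Over the 18 libraries, Pearson's r of log2 CPM between these genes ran from 0.924 to 0.986 in 6 pairs. The points share the Dox split and the library, and no test is attached.

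The other genes with the most similar profiles, ranked by mean r to the interferon-linked members over the 18 libraries, were Usp18 (0.97), Phf11d (0.966), Trim30a (0.965), Oasl2 (0.962) and Gm4951 (0.96). Usp18 and Oasl2 are themselves interferon-stimulated genes. Of 30 genes in an interferon-stimulated list, 24 were tested. With Dox, 24 of the 24 had positive values in DMSO, in ISO and in SR-3420, with median log2 fold changes of 3.27, 2.66 and 2.64 beside medians over all tested genes of 0.00, -0.01 and -0.00. No test is attached, because these are the contrasts the members were chosen on. Earlier results of these data were known when this list was chosen.

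Summed levels of 8 macrophage and dendritic cell markers were 14.6 to 21.7 CPM in DMSO with Dox and 10.9 to 19.3 CPM without. They were 11.6 to 14.2 against 6 to 17.8 CPM in ISO and 13.2 to 20.9 against 15.1 to 22.1 CPM in SR-3420. Of the 8, those with counts in a group numbered 6 with Dox and 7 without in DMSO, 6 and 4 in ISO and 4 and 7 in SR-3420. Cd68, which is not confined to these cells, had 3 to 32 counts in each library and a median of 11.7 CPM, and was the single marker with enough counts to be tested. The highest count in any library was 7 for Mrc1, 5 for Emr1, 4 for Csf1r, 3 for Itgam, 2 for Ptprc, 1 for Lyz2 and 1 for Itgax, and each of these was at 0 in at least 1 library. The summed ranges of these 8 markers overlapped between cells with and without Dox under each stimulus. Sums of the adipocyte markers overlapped in DMSO, at 2770 to 3330 CPM without Dox and 3250 to 3730 CPM with Dox. They lay higher with Dox in ISO (3760 to 3950 against 5820 to 5930 CPM) and in SR-3420 (4000 to 4200 against 4470 to 5780 CPM).

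Across all 10 members, the libraries with Dox lay wholly above those without for 5 members in DMSO, 6 in ISO and 5 in SR-3420, and wholly below for 0, 2 and 1. Over all genes tested, 7.98%, 14.7% and 15.4% lay wholly above and 6.98%, 13.6% and 14.1% wholly below. The members were chosen with this contrast, so nothing is read from these counts. The additional members above were Parp3 under each stimulus and Parp1 in ISO, and those below were Parp16 and Parp4 in ISO and Parp16 in SR-3420.

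**Figure D2:**
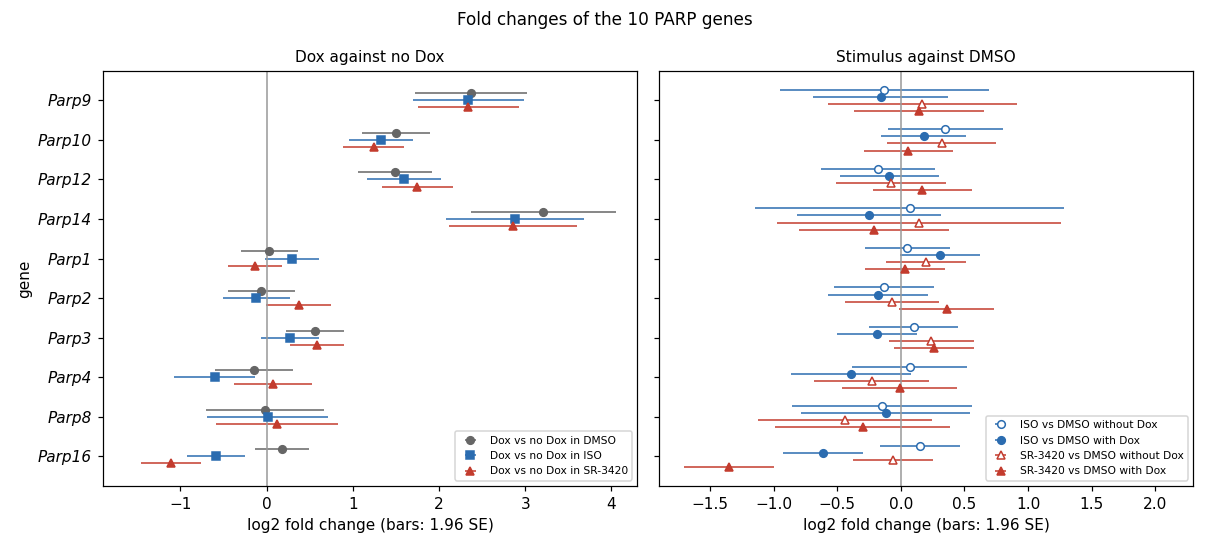
Log2 fold changes (x axis) of the 10 PARP genes (y axis) for Dox against no Dox under each stimulus (left) and for ISO or SR-3420 against DMSO without Dox (open) or with Dox (filled) (right). Points are edgeR estimates and bars 1.96 SE. The interferon-linked genes stand to the right in the Dox panel, from 1.24 to 3.21, and Parp16 stands at -1.35 for SR-3420 with Dox in the stimulus panel.

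The ISO and SR-3420 responses of the interferon-linked members were small beside the Dox difference. Without Dox, their log2 fold changes were -0.18 to 0.35 with ISO and -0.08 to 0.32 with SR-3420, and with Dox they were -0.25 to 0.18 with ISO. None of these 12 comparisons passed an edgeR adjusted p of 0.05, where 28.0% of all genes passed for ISO and 0.766% for SR-3420 without Dox and 32.5% for ISO with Dox. With SR-3420 without Dox, the value of Parp14 was 0.14 (SE 0.57) and turned to -0.55 (SE 0.66) without SR-3420 without Dox replicate 2. The precision differed by gene. For Parp14 without Dox, where few reads were counted, the interval for ISO reached from -1.14 to 1.28, so changes within it were not detectable at this depth. SR-3420 against DMSO with Dox, a contrast given without a test, gave 0.14 for Parp9, 0.06 for Parp10, 0.17 for Parp12 and -0.21 for Parp14. Without SR-3420 with Dox replicate 1 these were 0.41, 0.14, 0.36 and 0.09. Without DMSO with Dox replicate 1 they were -0.09, -0.08, -0.02 and -0.53.

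Parp10 came closest to a difference among them. In DMSO without Dox its libraries (38.1 to 43.6 CPM) lay below those with ISO (48.6 to 53.3 CPM) and with SR-3420 (44.7 to 52.8 CPM). The response to ISO was 0.35 (SE 0.23, edgeR adjusted p 0.266) and the response to SR-3420 0.32 (SE 0.22, edgeR adjusted p 0.739), and neither passed. No other member separated in these contrasts. Of all tested genes without Dox, 20.0% lay wholly higher and 19.8% wholly lower with ISO, and 7.79% and 6.29% with SR-3420. With Dox, ISO gave Parp10 a value of 0.18 (SE 0.17, edgeR adjusted p 0.44). That value was 0.42 (edgeR adjusted p 0.0488) without ISO with Dox replicate 1, and adjusted p ran from 0.0488 to 0.904 over the alternatives.

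Parp16 (NM_177460, mm9 chromosome 9, 65062497 to 65087026, plus strand) was the member with the lowest values in the stimulus contrasts with Dox. In cells with Dox its level was lower with ISO than with DMSO, and lowest with SR-3420. Without Dox its levels were 73.9, 69.4 and 88.3 CPM in DMSO, 76.7, 83.3 and 96.8 CPM in ISO and 67.9, 82.5 and 72.2 CPM in SR-3420. With Dox they were 87.6, 95.8 and 79.8 CPM in DMSO, 57.5, 47.3 and 68.3 CPM in ISO and 28.1, 37.8 and 37.9 CPM in SR-3420. The stimulus groups overlapped without Dox. With Dox the groups were fully separated, DMSO highest, ISO between and SR-3420 lowest.

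With Dox, the group means of Parp16 were 87.7 ± 8 CPM in DMSO and 57.7 ± 10.5 CPM in ISO (SD, n = 3). The log2 fold change was -0.61 (SE 0.16) or 1.53-fold lower, with 3 of 3 ISO libraries below every DMSO library. Parp16 was chosen with contrasts that used both of these groups, so this difference is a description without a test. Over the alternatives it ran from -0.75 to -0.46, the smallest without ISO with Dox replicate 2. None of the other 9 members passed for ISO with Dox (edgeR adjusted p 0.131 to 0.816), where 32.5% of all tested genes passed, 16.4% as higher and 16.1% as lower. Without Dox, ISO gave Parp16 a value of 0.15 (SE 0.16, interval -0.17 to 0.48, edgeR adjusted p 0.522).

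The ISO responses of Parp16 with and without Dox differed by -0.77 (SE 0.23), and by -0.78 (SE 0.21) with the replicate number as a block. This difference equals the Dox value in ISO less the Dox value in DMSO, both of which were used to choose the members, so it is a description without a test. All the stimulus contrasts share DMSO, ISO or SR-3420 libraries with the Dox contrasts by which members were chosen, so their p values are not independent of that choice.

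Without Dox, the log2 fold change of Parp16 with SR-3420 was -0.06 (SE 0.16), with an interval of -0.38 to 0.25. Parp16 was chosen with contrasts that used both of these groups, so this value is a description without a test. With Dox, the means were 87.7 ± 8 CPM in DMSO and 34.6 ± 5.62 CPM in SR-3420 (SD, n = 3). The response was -1.35 (SE 0.18) on the log2 scale, or 2.54-fold lower, and the difference between these responses was -1.29 (SE 0.24). Parp16 was chosen for these values, which carry no test. Without SR-3420 with Dox replicate 1, the lowest of the libraries, they were -1.21 (SE 0.20) and -1.15 (SE 0.26). With Dox, the level of Parp16 relative to no Dox was 0.18 (SE 0.16) in DMSO, -0.59 (SE 0.17) in ISO and -1.11 (SE 0.18) in SR-3420 on the log2 scale, the last -0.96 (SE 0.20) without that library.

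**Figure D3:**
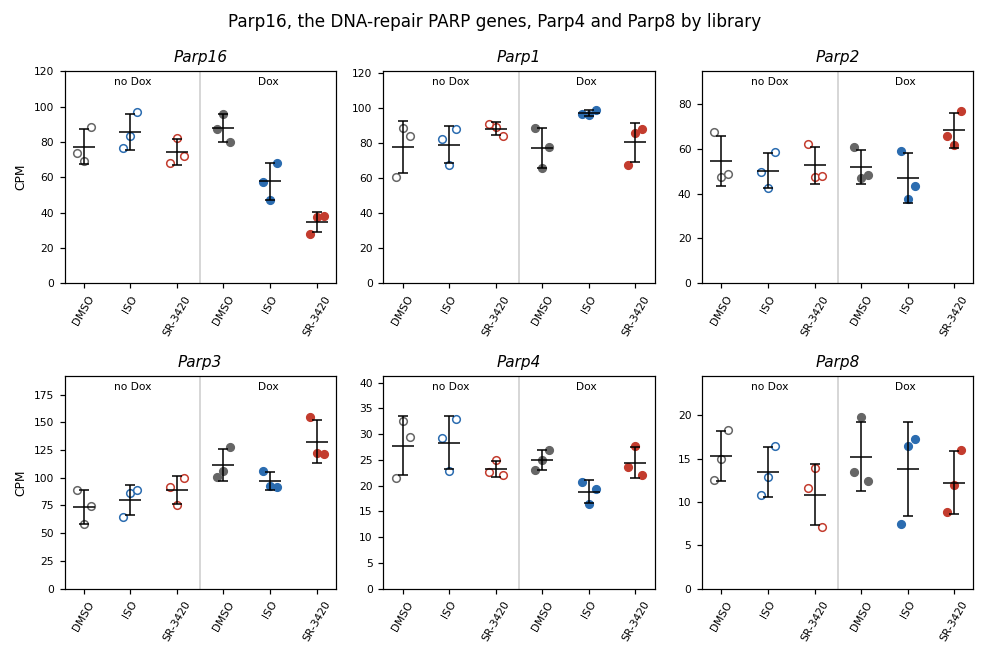
Levels of Parp16, Parp1, Parp2, Parp3, Parp4 and Parp8 in CPM (y axes, linear from 0) in the 3 libraries of each of the 6 groups (x axes). Points are libraries in the order of replicates 1 to 3, open without Dox and filled with Dox, and bars give the mean and SD. Parp16 steps down from DMSO to ISO to SR-3420 with Dox alone, from 87.7 to 57.7 to 34.6 CPM, while Parp1 and Parp2 keep overlapping ranges in most groups.

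The genes whose profile over the 18 libraries was most like that of Parp16 were Mapk14 (Pearson's r of log2 CPM 0.927), Abl1 (0.872), Park7 (0.87), Psmd5 (0.868) and Ube2e3 (0.864). With the interferon-linked members Parp16 had r from -0.515 to -0.389, and with the DNA-repair members from -0.58 to -0.0679. The points share libraries and the Dox split, and these values are a description.

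Because PARP16 resides in the ER membrane, 20 ER stress genes were counted beside it. Of the 18 tested, 2 were higher and 2 lower with ISO without Dox and 3 higher and 3 lower with ISO with Dox, beside 14.5% higher and 13.5% lower of all genes without Dox and 16.4% and 16.1% with Dox. The list had medians of -0.04 and 0.05 beside -0.01 and -0.02 for all genes. Herpud1, an ER-associated degradation factor, fell with ISO without Dox (-1.52, SE 0.21, edgeR adjusted p 1.94e-06) and with Dox (-1.07, SE 0.20, edgeR adjusted p 1.17e-04). Dnajb9, an ER co-chaperone, rose with ISO with Dox by 1.65 (SE 0.33, edgeR adjusted p 2.92e-04), and Pdia4, a disulfide isomerase of the ER, fell without Dox by 0.92 (SE 0.14, edgeR adjusted p 9.82e-06) on the log2 scale. With SR-3420 without Dox, 0 of the 18 passed.

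The DNA-repair members varied less over the libraries, by 1.64 to 2.64 times from lowest to highest against 4.01 to 49.9 times for the interferon-linked members. The latter were chosen for their Dox difference, which this range includes, so nothing is read from the comparison. The value of 49.9 belongs to Parp14, whose lowest library held 2 counts. Parp1 (NM_007415, mm9 chromosome 1, 182499106 to 182531385, plus strand), the main sensor of DNA breaks and source of poly(ADP-ribose), ranged from 60.5 to 99.1 CPM over all 18 libraries. In DMSO with Dox it had 88.6, 65.6 and 77.5 CPM, and in ISO with Dox 96.7, 96.1 and 99.1 CPM. The ISO libraries lay above the DMSO libraries here, but the response of 0.31 (SE 0.16, edgeR adjusted p 0.131) did not pass, and 21.3% of all tested genes separated in this way. Dox gave Parp1 values of 0.03, 0.29 and -0.14 in DMSO, ISO and SR-3420, the last -0.02 without SR-3420 with Dox replicate 1.

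Parp2 (NM_009632, mm9 chromosome 14, 51427621 to 51440975, plus strand), which shares the DNA-damage role of PARP1, ranged from 37.8 to 76.9 CPM. Its highest group was SR-3420 with Dox with 65.9, 61.6 and 76.9 CPM, against 60.7, 46.8 and 48.3 CPM in DMSO with Dox. These groups did not overlap, as was so for 13.6% of all genes (higher) and 12.2% (lower, where Parp16 lay), and the difference of 0.36 (SE 0.19) was 0.38 (SE 0.22) without SR-3420 with Dox replicate 1. Dox gave Parp2 log2 fold changes of -0.06, -0.12 and 0.37 in DMSO, ISO and SR-3420, the last 0.40 without that library.

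Parp3 (NM_145619, mm9 chromosome 9, 106372684 to 106378982, minus strand), which acts in the repair of double-strand breaks, stood somewhat higher with Dox. It had 89, 58.5 and 74.1 CPM in DMSO without Dox and 101, 106 and 128 CPM with Dox. In ISO it had 64.8, 86.3 and 88.6 CPM without Dox and 106, 92.9 and 91.4 CPM with Dox, and in SR-3420 91.7, 75.5 and 99.6 CPM without Dox and 155, 122 and 121 CPM with Dox. The groups separated under each stimulus, yet over all stimuli the libraries without Dox reached 99.6 CPM while those with Dox began at 91.4 CPM. The log2 fold changes for Dox were 0.56 (SE 0.17), 0.27 (SE 0.17) and 0.58 (SE 0.16), the last 0.46 (SE 0.17) without SR-3420 with Dox replicate 1 and 0.35 (SE 0.17) with scaling by library totals alone.

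Neither ISO nor SR-3420 without Dox, nor ISO with Dox, gave a DNA-repair member that passed, 0 of 3 in each, where 28.0%, 0.766% and 32.5% of all genes did. Their log2 fold changes were -0.13 to 0.10 with ISO without Dox, -0.07 to 0.24 with SR-3420 without Dox and -0.19 to 0.31 with ISO with Dox. Of 12 further genes of single-strand break repair and end joining, 10 were tested. Of these, 1 was higher and 2 lower with ISO without Dox, 0 were higher and 2 lower with ISO with Dox, and 0 passed with SR-3420 without Dox, beside the same shares of all genes. Their median log2 fold changes were -0.30, -0.34 and 0.03, beside -0.01, -0.02 and -0.00 for all genes. Xrcc1, a scaffold recruited by poly(ADP-ribose), fell with ISO without Dox (-0.46, SE 0.16, edgeR adjusted p 0.0319). With Dox, Aplf (-0.97, SE 0.30, edgeR adjusted p 0.0152) and Tdp1 (-1.02, SE 0.35, edgeR adjusted p 0.0273) fell. Each of these calls was lost in 3 to 5 of 6 fits that left out a library. Parp3 had r from 0.678 to 0.715 with the interferon-linked members over the 18 libraries, while pairs of DNA-repair members had r from -0.217 to 0.437. The points share the Dox split by which the interferon-linked members were chosen, and these values are a description.

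Parp4 (NM_001145978, mm9 chromosome 14, 57194456 to 57278635, plus strand) ranged from 16.5 to 33 CPM. Its lowest group was ISO with Dox, with 20.8, 16.5 and 19.3 CPM against 23.1, 25 and 27 CPM in DMSO with Dox and 29.2, 22.8 and 33 CPM in ISO without Dox. ISO with Dox lay below both of these groups. The ISO response with Dox was -0.39 (SE 0.24, edgeR adjusted p 0.218), and 21.4% of all tested genes lay wholly lower in this contrast. Dox gave Parp4 values of -0.15 (SE 0.23), -0.60 (SE 0.24) and 0.07 (SE 0.23) in DMSO, ISO and SR-3420, the last 0.11 without SR-3420 with Dox replicate 1. Parp4 overlaps Gm16573 on the other strand over 13253 bases.

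Parp8 (NM_001081009, mm9 chromosome 13, 117643631 to 117814323, minus strand), the longest of the genes, rested on 9 to 28 counts per library. It ranged from 7.06 to 19.8 CPM, and its groups overlapped in every contrast. Dox gave log2 fold changes of -0.02 (SE 0.35), 0.01 (SE 0.36) and 0.12 (SE 0.36), the last 0.33 (SE 0.39) without SR-3420 with Dox replicate 1, with errors larger than the values at this depth.

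Without Dox, 0 of 10 members passed for ISO (edgeR adjusted p 0.266 to 0.947, 0 with unadjusted p under 0.05, DESeq2 also 0) where 28.0% of all genes did (14.5% higher, 13.5% lower). For SR-3420 without Dox, 0 of 10 passed as well (edgeR adjusted p 0.739 to 0.985, 0 with unadjusted p under 0.05, DESeq2 also 0), where 0.766% of all genes did (0.698% higher, 0.0688% lower). The 10 include Parp16, which was chosen with contrasts that used the SR-3420 and DMSO groups without Dox. Median log2 fold changes of the members were 0.06 and 0.04, beside -0.01 and -0.00 over all genes. With ISO and Dox the median was -0.17 beside -0.02.

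Of the family genes outside the 10 members, all 6 listed were tested. With ISO, 1 was higher and 0 lower without Dox and 1 higher and 1 lower with Dox, where 28.0% and 32.5% of all genes passed, and 0 passed with SR-3420 without Dox. Tiparp, a target gene and repressor of the aryl hydrocarbon receptor, rose with ISO. It had 46.3, 39.4 and 35.5 CPM in DMSO and 67, 86.3 and 69.8 CPM in ISO without Dox, and 36.1, 35.4 and 22.5 against 65.9, 81.1 and 67.4 CPM with Dox. The groups did not overlap, with log2 fold changes of 0.87 (SE 0.22, edgeR adjusted p 0.00334) and 1.15 (SE 0.21, edgeR adjusted p 1.23e-04). Tiparp overlaps a gene on the other strand over 933 bases.

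Zc3hav1, the zinc-finger antiviral protein also known as PARP13, was also higher with Dox. It had 34.7, 36.7 and 29.4 CPM in DMSO without Dox and 83.8, 93.7 and 104 CPM with Dox, and Dox log2 fold changes of 1.47 (SE 0.22), 0.90 (SE 0.23) and 1.41 (SE 0.21) in DMSO, ISO and SR-3420, the last 1.59 without SR-3420 with Dox replicate 1. With Dox it fell with ISO, to 43.4, 55.1 and 72.2 CPM (log2 fold change -0.72, SE 0.19, edgeR adjusted p 0.00488). It gave 60.6, 82.5 and 97.9 CPM in SR-3420 with Dox. Adjusted p for the ISO response ran from 3.01e-04 to 0.0481 over the alternatives.

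Dtx3l, the partner of PARP9, had 5.34, 1.36 and 5.07 CPM in DMSO without Dox and 30.8, 30.2 and 32.6 CPM with Dox. Its Dox log2 fold changes were 2.86 (SE 0.43), 1.79 (SE 0.40) and 1.17 (SE 0.36) in DMSO, ISO and SR-3420, the last 1.49 (SE 0.36) without SR-3420 with Dox replicate 1. In SR-3420 the groups overlapped, with 11.4 CPM in the lowest library with Dox and 12.2 CPM in the highest without. Its levels without Dox rested on 1 to 21 counts. Dtx3l overlaps Parp9 by 558 bases. Parp11 had Dox values of 0.58 (SE 0.23), 0.89 (SE 0.24) and 0.57 (SE 0.22), and Tnks, which encodes tankyrase, 0.07 (SE 0.21), 0.42 (SE 0.20) and 0.71 (SE 0.20). Without SR-3420 with Dox replicate 1 the values in SR-3420 were 0.63 and 0.76. Parp6 (-0.12 to 0.03) and Tnks2 (0.09 to 0.40) moved less. No p is given for these, because the members were chosen on the same contrast.

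**Figure D4:**
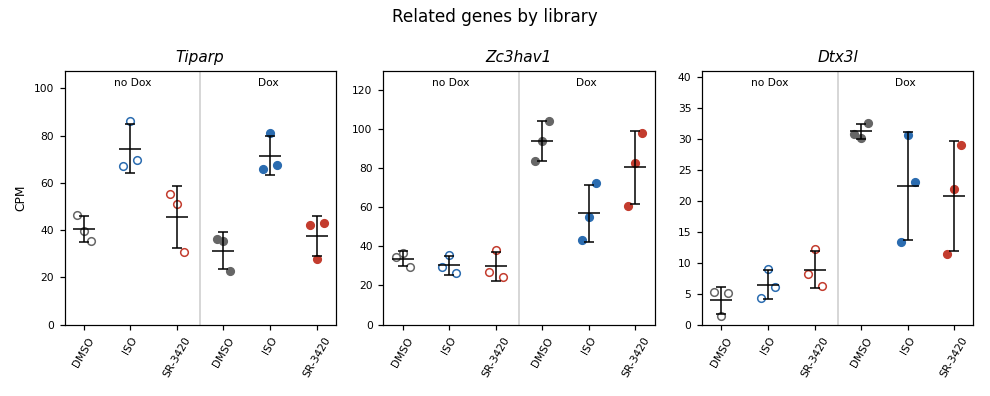
Levels of Tiparp, Zc3hav1 and Dtx3l in CPM (y axes, linear from 0) in the 3 libraries of each of the 6 groups (x axes), open without Dox and filled with Dox, with the mean and SD. Tiparp is higher in ISO than in DMSO with and without Dox, and Zc3hav1 and Dtx3l are higher with Dox in DMSO, at 94 and 31.2 CPM against 33.6 and 3.92 CPM.

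Genes that remove ADP-ribose or handle NAD+, the substrate of PARP enzymes, were read from lists of 11 and 18 genes. Of the 9 ADP-ribose removal genes tested, 0 were higher and 2 lower with ISO without Dox and 1 was higher and 2 lower with Dox, with 0 passing for SR-3420 without Dox. Macrod1, a mitochondrial mono-ADP-ribose hydrolase, fell without Dox (-0.86, SE 0.23, edgeR adjusted p 0.00646) and with Dox (-0.69, SE 0.21, edgeR adjusted p 0.0118), as did Oard1, a related hydrolase (-0.52, SE 0.16, edgeR adjusted p 0.0145, and -0.52, SE 0.15, edgeR adjusted p 0.0102). These calls were lost in 1 to 3 of 6 fits that left out a library. Of the 16 NAD+ genes tested, 3 were higher and 3 lower with ISO without Dox and 4 higher and 3 lower with Dox, with 0 passing for SR-3420 without Dox. Over all genes 28.0%, 32.5% and 0.766% passed in these contrasts. Slc25a51, the mitochondrial NAD+ carrier, rose with ISO by 2.71 (SE 0.18, edgeR adjusted p 3.86e-12) without Dox and 2.99 (SE 0.18, edgeR adjusted p 1.81e-13) with Dox. Nnmt, which methylates nicotinamide, rose by 2.36 (SE 0.21, edgeR adjusted p 8.55e-10) and 2.41 (SE 0.20, edgeR adjusted p 1.12e-10).

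The interferon-stimulated list responded little to the stimuli beside its Dox difference. With ISO, 3 of the 24 tested genes were higher and 0 lower without Dox, and 2 were higher and 1 lower with Dox, where 28.0% and 32.5% of all genes passed. With SR-3420 without Dox 0 passed, where 0.766% of all genes did. Trim25, a ubiquitin ligase of antiviral sensing, rose with ISO by 1.53 (SE 0.22, edgeR adjusted p 5.55e-06) without Dox and 0.96 (SE 0.17, edgeR adjusted p 7.36e-05) with Dox. None of the interferon-linked PARP members passed in either ISO contrast.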

How the data were processed

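RNA of 18 libraries in 6 groups was sequenced by the authors, aligned to mm9 with STAR 2.4.2a, reduced to 1 read per position and length with HOMER and counted with iRNA-seq. The deposited values are whole-number counts per gene, not normalised. According to the methods the RNA-seq data came from 3 independent experiments, and sample titles gave the groups. Whether the replicate numbers mark these experiments across groups is not stated.

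Of 17672 genes, filterByExpr kept 10178 and 7494 were not tested. Counts were fitted with edgeR 4.0.16 in R 4.3.3 (TMM factors 0.768 to 1.13, quasi-likelihood test, 1 mean per group, two-sided, Benjamini-Hochberg adjustment over all tested genes). A gene passed at an adjusted p of 0.05 or less. CPM used TMM-scaled totals, r used log2 CPM with a prior count of 2, intervals are 1.96 SE, and coordinates count from 1. Limma 3.58.1 was loaded with edgeR. Alternatives were RLE factors, library totals, other filters, DESeq2 1.42.0, only the groups compared, a replicate block, a log2 limit of 1 and fits without each library. In simulated data for ISO against DMSO with Dox (10048 genes, 50 changed per fold), 20% were recovered at 1.5-fold, 66% at 2-fold, 90% at 3-fold and 94% at 4-fold. Far fewer genes were changed there than the 32.5% that passed in the data, so these shares need not hold for the data.

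Members, gene lists and tests were chosen with earlier results of these data known. Named genes were all members, Abhd5, the other PARP genes and Dtx3l, the 5 most similar profiles, and at most 2 genes of each further list (interferon-stimulated, ER stress, single-strand break repair, ADP-ribose removal, NAD+) with the smallest p among those that passed in each tested contrast. The ISO interaction and, for Parp16, ISO with Dox and SR-3420 without Dox were planned as tests. They are given without p, since they use the groups and contrasts by which members were chosen. Some genes that this rule gives are not reported here.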

Additional observations from a re-analysis of the deposited data

How the results depend on the processing

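Depth limited Parp14 without Dox and Parp8, and 3 libraries per group left modest changes undetected. Over the alternatives, members changed sign in 33 fits of the ISO contrasts and of SR-3420 without Dox, none past the threshold and none above 0.55 in size on the log2 scale. Parp16 turned from 0.15 to -0.02 for ISO without Dox with library totals only, and from -0.06 to 0.04 for SR-3420 without Dox without DMSO without Dox replicate 3 (-0.15 to 0.04 when a library was left out). Parp14 turned from 0.14 to -0.55 for SR-3420 without Dox without SR-3420 without Dox replicate 2 and to -0.03 without DMSO without Dox replicate 2 (-0.55 to 0.49 when a library was left out). Library totals only moved the median of all genes by up to 0.22, to -0.19 and -0.16 in the ISO contrasts without and with Dox, -0.22 for Dox in SR-3420, -0.21 for SR-3420 with Dox and -0.14 for the SR-3420 interaction. The share of passing genes that were higher then went from 51.7% to 30.2%, 50.4% to 34.7%, 62.9% to 22.5%, 66% to 31.5% and 71.4% to 38.1%, and for the ISO interaction from 73.9% to 84.6%. The cause of these and the following changes was not tested.

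Members passing for ISO with Dox numbered 1 (Parp16, chosen with contrasts that used these libraries, so the count supports nothing), but 0 with a log2 limit of 1, and 0 to 2 when a library was left out (0 without ISO with Dox replicate 2, 2 without ISO with Dox replicate 1). Genes passing fell with the log2 limit of 1 by construction, to 1108 from 2846 (ISO without Dox), 1334 from 3309 (ISO with Dox), 27 from 78 (SR-3420 without Dox), 133 from 222 (ISO interaction), 477 from 1297 (Dox in ISO), 346 from 1175 (Dox in SR-3420) and 316 from 1008 (SR-3420 with Dox). With library totals only, 36 passed for SR-3420 without Dox, 130 for the ISO interaction and 42 for the SR-3420 interaction, against 77 with TMM factors. Without the filter these were 157, 358 and 156, and 191 from 120 for Dox in DMSO, where at least 10 counts in every library left 62. Leaving out a library gave 28 (without DMSO without Dox replicate 1) to 53 for SR-3420 without Dox, 111 (without DMSO without Dox replicate 1 or ISO with Dox replicate 1) to 301 for the ISO interaction, 77 (without DMSO without Dox replicate 1) to 143 for Dox in DMSO, 757 to 933 for Dox in SR-3420 and 639 to 847 for SR-3420 with Dox (lowest without SR-3420 with Dox replicate 1 in both), and 28 (without SR-3420 without Dox replicate 3) to 68 for the SR-3420 interaction.

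Same-numbered libraries deviated together with r of 0.0386 to 0.277 in 45 pairs, 36 over 0.1, and all 18 libraries correlated best with their own number. This is a hint from the data, since whether the numbers mark the independent experiments is not stated. With the replicate block, genes passing were 238 for SR-3420 without Dox, 600 for the ISO interaction, 271 for Dox in DMSO, 1834 for Dox in SR-3420, 1568 for SR-3420 with Dox and 339 for the SR-3420 interaction. With the block, members passing the ISO interaction went from 0 to 1 (Parp16), which supports nothing because this difference combines Dox contrasts used to choose the members, and no other member's call changed.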
